A study of Mus musculus with 28 samples.

Results

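Respiratory complex I (NADH:ubiquinone oxidoreductase) was followed at the level of RNA through the genes whose symbol begins with Nduf, in mouse fibroblasts of 2 lines. Of 98 probe sets whose annotation named such a gene, 88 named 1 gene only and were used, which gave 44 genes of the 18193 measured. A gene with more than 1 probe set, as 22 of the 44 had, was represented by the one that varied most (by SD) among the 28 arrays. In 10 of these 22 every other probe set correlated with it at over 0.5, and in 7 at least 1 correlated below 0. The 44 comprised 6 core subunits, 28 accessory subunits, 8 assembly factors, and Ndufa4 and Ndufa4l2, which carry the Nduf name but are now assigned to complex IV. Ndufs6 and Ndufa11 were not analysed here.

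Complex I takes electrons from NADH and passes them through a flavin and a chain of iron-sulfur clusters to ubiquinone, and pumps protons across the inner mitochondrial membrane as it does so. Its core subunits, some encoded in the nucleus and the others in mitochondrial DNA, carry out catalysis and pumping. The accessory subunits surround them and stabilise the complex, and assembly factors help to build it without remaining in it.

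NIH3T3 is an immortalised line of mouse embryonic fibroblasts, and NIH3T3 K-ras is the corresponding line labelled K-ras, after a GTPase that relays growth signals. Which form of K-ras it carries was not given in the labels. Both were grown in 10% newborn calf serum and 4 mM glutamine for 18 h after seeding, when the medium was changed to 25 or 1 mM glucose. Cells of each line were taken at that change (0 h, listed under 25 mM) and after 24, 48 and 72 h at 25 mM, and after 24, 48 and 72 h at 1 mM. This made 14 groups of 2 arrays, described as biological replicates. A single line of each kind was used, so a difference between them belongs to these 2 lines. In bulk RNA, fewer cells of a type and less RNA per cell cannot be told apart.

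Each value is a log2 ratio, taken relative to the median of the same probe set on the 28 arrays. Zero is therefore that median, and the absolute level is missing, so levels could not be compared between genes, the fibroblast label could not be checked against marker levels, and signal over background is unknown. A gene is called, or said to have risen or fallen, where limma's adjusted p over all 18193 genes was under 0.05. The ± values are limma standard errors.

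By their 500 most variable genes, 6 arrays lay with the line opposite to their label: both of NIH3T3 at 1 mM and 24 h, and the first replicates of NIH3T3 at 1 mM and 48 h, K-ras at 25 mM and 0 h, K-ras at 1 mM and 48 h, and K-ras at 1 mM and 72 h. The labels were kept, and results are also given without these arrays. Replicate 1 of K-ras at 25 mM and 72 h stood apart in its spread, with an interquartile range over all genes of 0.777, against at most 0.525 on the other arrays. Any fit without replicate 2 of that group rests on this array alone for K-ras at 25 mM and 72 h. The hybridisation control bioC was low on 12 arrays, all of NIH3T3, among them all 8 NIH3T3 arrays at 25 mM. Over the 44 genes, the correlation between the 2 replicates of a group lay between -0.61 and 0.79, with a median of 0.16.

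The promoters of 4 genes are shown as examples: Ndufv3 and Ndufa6 rose late in the culture, Ndufaf4 fell, and the core subunit Ndufs3 was not called in any comparison. Each line holds 250 bases before and 50 after the RefSeq transcription start in GRCm38.p6, read 5′ to 3′ on the gene's strand. Capitals mark matches, on either strand, to the letters GCGCANGCG (most of the core of the binding motif of NRF1, a factor known to act on nuclear genes of respiration), CCGGAAG (an ETS factor motif) or AAGATGGCG (a YY1 motif).
Ndufv3 (chr17:31519865-31520164, plus strand): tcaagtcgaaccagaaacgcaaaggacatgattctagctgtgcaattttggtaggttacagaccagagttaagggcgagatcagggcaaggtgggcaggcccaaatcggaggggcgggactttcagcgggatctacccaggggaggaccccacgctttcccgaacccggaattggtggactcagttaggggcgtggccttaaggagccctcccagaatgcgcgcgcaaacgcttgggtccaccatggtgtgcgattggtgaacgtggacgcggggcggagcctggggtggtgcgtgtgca
Ndufa6 (chr15:82354242-82354541, minus strand): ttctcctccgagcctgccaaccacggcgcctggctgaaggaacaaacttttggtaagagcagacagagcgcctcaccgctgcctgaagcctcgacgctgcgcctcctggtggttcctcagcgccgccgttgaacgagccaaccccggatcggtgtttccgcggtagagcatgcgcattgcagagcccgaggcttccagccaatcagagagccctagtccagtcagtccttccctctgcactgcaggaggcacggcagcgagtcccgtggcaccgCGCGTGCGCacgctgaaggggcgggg
Ndufaf4 (chr4:24897833-24898132, plus strand): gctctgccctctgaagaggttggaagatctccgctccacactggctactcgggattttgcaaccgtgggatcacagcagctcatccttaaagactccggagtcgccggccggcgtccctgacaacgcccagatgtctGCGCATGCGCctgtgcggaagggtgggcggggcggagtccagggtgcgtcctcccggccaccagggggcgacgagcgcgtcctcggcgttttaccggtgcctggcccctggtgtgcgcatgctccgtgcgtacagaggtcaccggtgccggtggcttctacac
Ndufs3 (chr2:90904672-90904971, minus strand): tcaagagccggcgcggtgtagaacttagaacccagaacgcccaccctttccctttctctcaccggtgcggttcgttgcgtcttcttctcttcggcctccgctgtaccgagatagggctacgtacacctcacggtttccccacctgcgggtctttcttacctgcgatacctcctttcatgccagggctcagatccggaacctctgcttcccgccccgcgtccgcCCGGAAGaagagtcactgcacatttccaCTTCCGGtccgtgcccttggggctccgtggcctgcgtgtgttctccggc
The capitals show 1 NRF1-like match in Ndufa6, 2 overlapping ones on opposite strands in Ndufaf4, and 2 separate ETS matches in Ndufs3. In Ndufv3 none of the 3 letter strings occurred within this window. Promoters were found for 39 of the 44 genes, 41 promoters in all. The NRF1 letters occurred in 9 of these 41 (22%) and in 6.25% of all 32851 promoters of the same length. The YY1 letters occurred in 12.2% and 1.4%, and the ETS letters in 14.6% and 8.86%. The CCAAT box, of letters CCAAT, occurred in 31.7% and 37.4%. These are matches of letters and not measured binding, and the motif letters were not tested for overlap with one another.

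**Figure D1:**
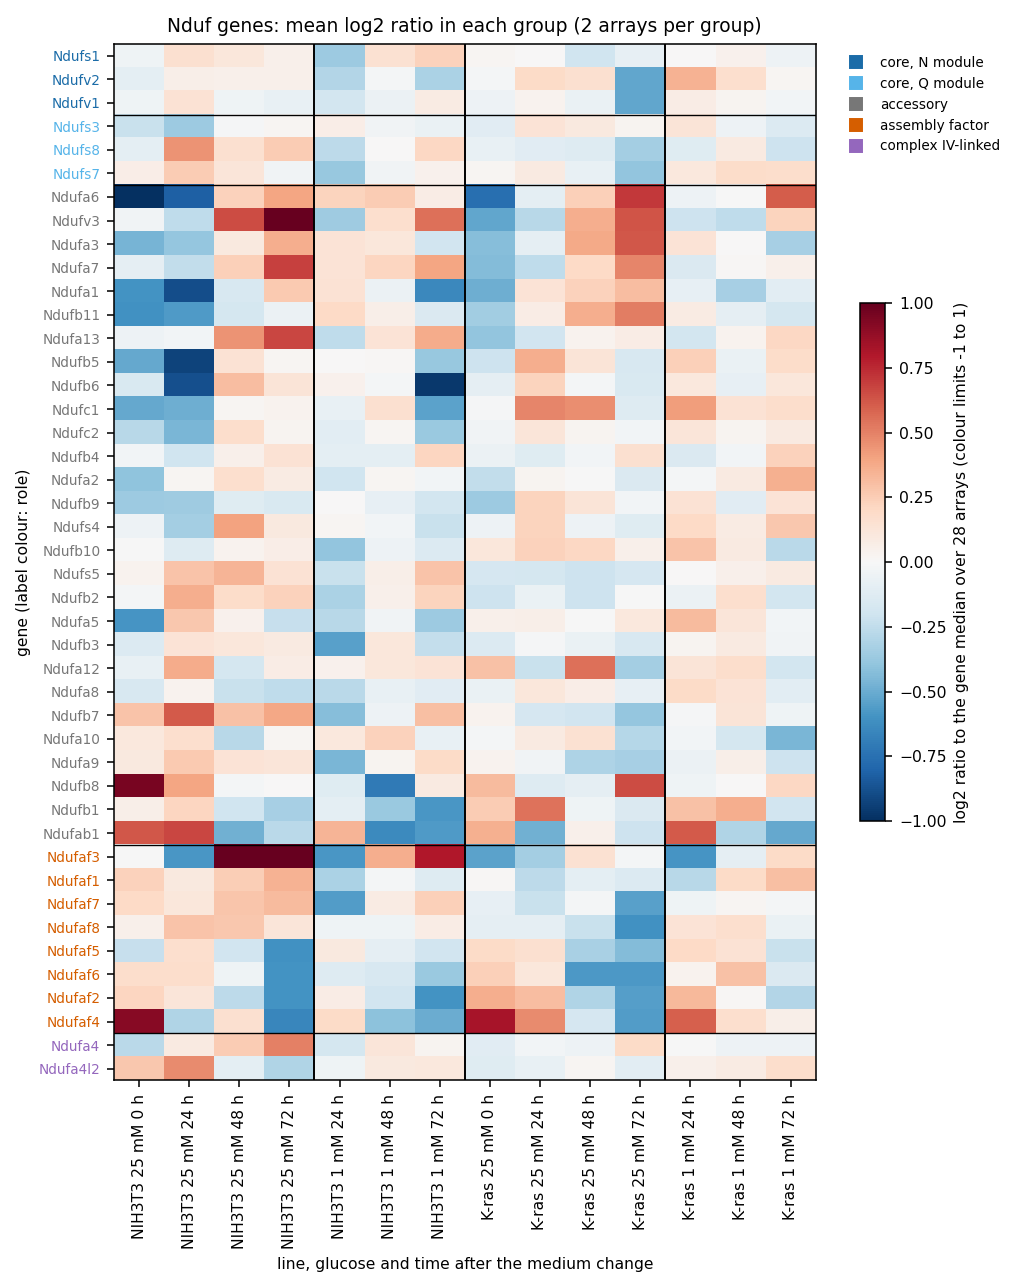
Mean log2 ratio of the 44 Nduf genes (rows, ordered within each role by their late change at 25 mM) in the 14 groups of 2 arrays (columns); colour runs from blue (below the gene's median over 28 arrays) to red (above), with the scale saturating 1 log2 unit either side of 0. The core subunits at the top stay pale, while Ndufa6, Ndufv3, Ndufa3 and Ndufa7 turn from blue to red with time at 25 mM.

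The 44 genes did not vary as one block. Their SD over the 28 arrays had a median of 0.342 and ran from 0.214 to 0.848, against a median of 0.324 for all genes. Over the arrays, the 946 pairs of Nduf genes had a median correlation of 0.16. It was over 0.5 in 20.5% of pairs and below 0 in 34.6%. Within roles the median correlation was 0.12 for the accessory subunits, 0.42 for the assembly factors, 0.52 for the 3 core subunits of the NADH-oxidising N module and 0.14 for the 3 of the ubiquinone-binding Q module. All pairs share the same arrays and normalisation. The genes most like the median pattern of the family over the 14 group means were Ndufb3 (r = 0.82), Ndufv2 (r = 0.77) and Ndufaf8 (r = 0.76), and the least like it were Ndufb11 (r = -0.35), Ndufb4 (r = -0.31) and Ndufb8 (r = -0.27).

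Time in culture at 25 mM glucose was the condition in which the most Nduf genes were called. The comparison of the mean of 48 and 72 h with the mean of 0 and 24 h, averaged over both lines, was added after the values had been seen, so its calls describe these arrays and are not independent support. Of 28 accessory subunits 6 rose late and 0 fell, of 8 assembly factors Ndufaf3 rose and Ndufaf2, Ndufaf4 and Ndufaf6 fell, and 0 of 6 core subunits were called. In all, 10 of the 44 genes were called (22.7%), 7 higher and 3 lower, where 12.9% of all genes were called (7.43% higher, 5.5% lower). The median late change was 0.03 for the 44 genes and -0.01 for all genes.

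Ndufv3, a small accessory subunit of the N module, rose with the least overlap. In NIH3T3 at 25 mM its log2 ratios were -0.26 and 0.19 at 0 h, -0.40 and -0.10 at 24 h, 1.05 and 0.25 at 48 h, and 0.98 and 1.20 at 72 h. In K-ras they were -0.50 and -0.54 at 0 h, -0.23 and -0.33 at 24 h, 0.58 and 0.15 at 48 h, and 0.80 and 0.47 at 72 h. Within each line, every array at 48 or 72 h lay above every array at 0 or 24 h, which held for 10% of all genes in NIH3T3 and 5.54% in K-ras. The late change was 0.96 ± 0.17 (limma adjusted p = 0.00198).

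Ndufa6, a subunit of the LYR family that binds mitochondrial acyl carrier protein, had the largest late rise of the 44. In NIH3T3 at 25 mM it went from -1.25 and -1.12 at 0 h, and -0.72 and -0.91 at 24 h, to 0.85 and -0.38 at 48 h, and 0.24 and 0.56 at 72 h. In K-ras it went from -0.91 and -0.60 at 0 h, and 0.30 and -0.50 at 24 h, to 0.50 and -0.02 at 48 h, and 0.71 and 0.70 at 72 h. The early and late arrays were separate in NIH3T3 and overlapped in K-ras, through 1 array at 24 h and 1 at 48 h. The late change was 1.11 ± 0.24 (limma adjusted p = 0.00619). The acyl carrier protein itself, Ndufab1, varied the most of the 44, with replicates as far apart as 1.37 and -1.79 in K-ras at 72 h, and its late change of -0.52 ± 0.45 was not called. Its 4 other probe sets correlated with the one used at only -0.29 to 0.40, so the probe sets of this gene disagree.

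Ndufa1, a small membrane-arm subunit, also rose. It read -0.68 and -0.52 at 0 h, -0.88 and -0.89 at 24 h, 0.10 and -0.43 at 48 h, and 0.24 and 0.28 at 72 h in NIH3T3, where early and late arrays did not overlap. In K-ras it read -0.97 and -0.01 at 0 h, 0.01 and 0.27 at 24 h, 0.37 and 0.10 at 48 h, and 0.33 and 0.29 at 72 h. The low K-ras value at 0 h belongs to an array that lay with NIH3T3. The late change was 0.62 ± 0.15 (limma adjusted p = 0.0109), and 0.50 without the arrays that lay with the other line (adjusted p = 0.00721).

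Ndufa3, another small membrane-arm subunit, spanned -0.66 to 0.05 (median -0.39) on the 8 early arrays and -0.02 to 0.79 (median 0.33) on the 8 late arrays. Its late change was 0.71 ± 0.14 (limma adjusted p = 0.00442). Its other probe sets gave 0.66 and -0.35, so the probe sets of this gene disagree, and the mean over them gave 0.34 (adjusted p = 0.0735). Ndufa7, an accessory subunit, spanned -0.59 to 0.11 (median -0.28) early and -0.22 to 0.73 (median 0.48) late, a change of 0.66 ± 0.16 (adjusted p = 0.0111). All 5 of its probe sets gave a positive late change, from 0.31 to 0.66.

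Ndufa13, also known as Grim19, spanned -0.53 to 0.14 (median -0.19) early and -0.08 to 0.83 (median 0.29) late, a change of 0.47 ± 0.12 (limma adjusted p = 0.015). A pair of probe sets whose annotation names both Yjefn3 and Ndufa13 gave 0.07 and -0.08. Each of Ndufv3, Ndufa6, Ndufa1, Ndufa3, Ndufa7 and Ndufa13 stayed called when any 1 of the 16 arrays at 25 mM was left out. Ndufv3 and Ndufa7 were the 2 genes called when 72 h was compared with 24 h alone.

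**Figure D2:**
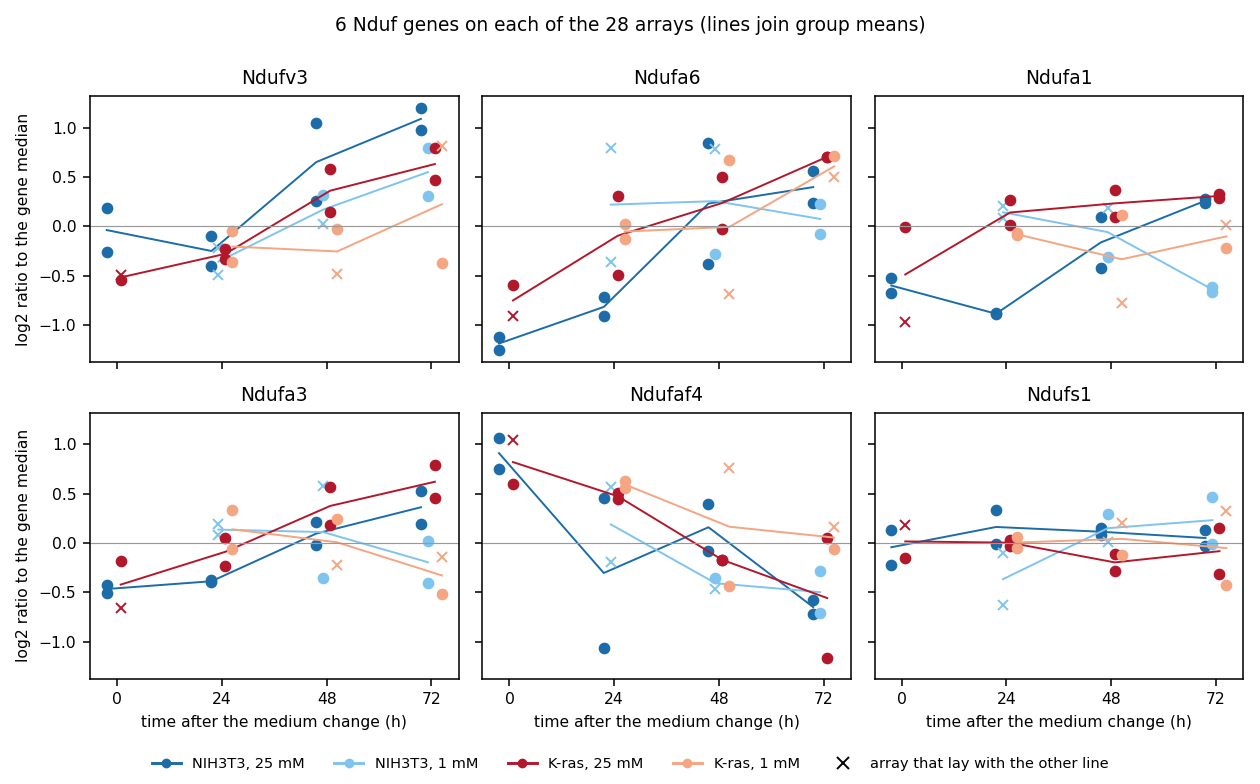
Log2 ratio of 6 Nduf genes on each array against hours after the medium change, by line and glucose; points are arrays, crosses are arrays that lay with the other line, lines join group means of 2 arrays, and points are shifted sideways to separate the groups. Ndufv3, Ndufa6, Ndufa1 and Ndufa3 are higher late at 25 mM, Ndufaf4 is lower, and the core subunit Ndufs1 stays near 0.

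The assembly factors moved in both directions. Ndufaf3 and Ndufaf4 act together in early steps of assembly, and their RNAs changed in opposite directions. Ndufaf3 spanned -0.95 to 0.24 (median -0.37) on the early arrays and -0.59 to 1.48 (median 0.59) on the late ones, a change of 0.95 ± 0.27 (limma adjusted p = 0.0272). Its change was 1.40 ± 0.38 in NIH3T3 (adjusted p = 0.0238) and 0.50 ± 0.38 in K-ras (adjusted p = 0.621).

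Ndufaf4 read 1.07 and 0.76 at 0 h, -1.06 and 0.46 at 24 h, -0.08 and 0.40 at 48 h, and -0.72 and -0.58 at 72 h in NIH3T3. In K-ras it read 1.05 and 0.59 at 0 h, 0.50 and 0.45 at 24 h, -0.17 and -0.17 at 48 h, and -1.17 and 0.05 at 72 h. In K-ras no late array reached an early one, as in 4.8% of all genes, while in NIH3T3 the 24 h replicates lay far apart and overlapped the late arrays. The late change was -0.78 ± 0.23 (limma adjusted p = 0.0318), and its other probe set gave -1.07.

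Ndufaf2, a paralogue of the subunit Ndufa12 that holds its place during assembly, spanned 0.01 to 0.42 early (median 0.29) and -1.22 to 0.12 late (median -0.39), a change of -0.68 ± 0.20 (limma adjusted p = 0.0307). Ndufaf6 spanned -0.03 to 0.47 early (median 0.18) and -1.13 to 0.04 late (median -0.42), a change of -0.63 ± 0.19 (adjusted p = 0.0391). The lowest value of Ndufaf2, Ndufaf4 and Ndufaf6 each came from replicate 1 of K-ras at 72 h, the array with the wide spread.

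These 4 assembly factors were called less steadily than the 6 accessory subunits. When 1 of the 16 arrays was left out in turn, Ndufaf3 stayed called in 7 of 16 fits, and Ndufaf2, Ndufaf4 and Ndufaf6 in 5 each. Without replicate 1 of K-ras at 72 h, Ndufaf2 changed by -0.51 and Ndufaf6 by -0.49. Without the 6 arrays that lay with the other line, Ndufaf4 (-0.72, adjusted p = 0.0517) and Ndufaf6 (-0.57, adjusted p = 0.0755) were no longer called. The number of Nduf genes called was 8 in that fit (18.2%, against 15.5% of all genes). Over the fits that left out 1 array it ran from 6, in 5 of the 16 fits, to 12. The 12 came without replicate 2 of K-ras at 72 h (27.3%, against 17.4% of all genes).

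The other assembly factors were not called. Ndufaf5, which hydroxylates Ndufs7, changed by -0.46 ± 0.22, and its partner Ndufaf8 by -0.15 ± 0.17. Ndufaf1 changed by 0.07 ± 0.17 and Ndufaf7, a methyltransferase, by 0.00 ± 0.21.

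The core subunits, which bind the flavin and the iron-sulfur clusters or shape the ubiquinone site, showed late changes between -0.20 and 0.18, and none was called as fitted. Without replicate 2 of K-ras at 72 h, Ndufv1 changed by -0.35, in a fit that rests on the array with the wide spread for that group. Ndufs1 read between -0.22 and 0.34 on the early arrays and between -0.31 and 0.15 on the late ones. The late changes were -0.06 ± 0.13 for Ndufs1, -0.20 ± 0.15 for Ndufv1 and -0.10 ± 0.15 for Ndufv2 in the N module. In the Q module they were 0.18 ± 0.14 for Ndufs3, -0.20 ± 0.13 for Ndufs7 and -0.06 ± 0.14 for Ndufs8. A missing call does not show that these genes did not change, since the SE was 0.13 to 0.15. Ndufa4 changed by 0.30 ± 0.17.

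Taken by line, 8 Nduf genes were called late in NIH3T3 (18.2%, against 12.8% of all genes) and 0 in K-ras (against 0.11% of all genes). The 7 that rose in NIH3T3 (8.28% of all genes rose and 4.55% fell) were Ndufaf3, Ndufa6, Ndufv3, Ndufb5, Ndufa1, Ndufa3 and Ndufa13. Ndufa4l2, the hypoxia-responsive paralogue of Ndufa4, fell by 0.57 ± 0.16 (limma adjusted p = 0.029) in NIH3T3 and changed by 0.06 ± 0.16 in K-ras. Without replicate 1 of NIH3T3 at 48 h, 0 of the 8 calls were left, and 3.56% of all genes were called. Without replicate 2 of K-ras at 72 h, 8 Nduf genes were called in K-ras (18.2%, against 9.58% of all genes). That fit rests on the array with the wide spread for K-ras at 72 h. In K-ras as fitted, 9 of the 44 had an unadjusted p under 0.05 (20.5%, against 12.2% of all genes).

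The difference in late change between the lines was called for 0 of the 44 genes (background 0.011%), with 5 at an unadjusted p under 0.05 (11.4%, against 12.7% of all genes). The most negative differences were those of Ndufaf3 (-0.90), Ndufb5 (-0.90) and Ndufb6 (-0.89), where the late change was larger in NIH3T3. The late changes of the 2 lines use separate arrays. They had the same sign for 27 of 44 Nduf genes (61.4%) and for 57.6% of all genes, with a correlation across genes of 0.69 and 0.51. Genes are not independent replicates.

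**Figure D3:**
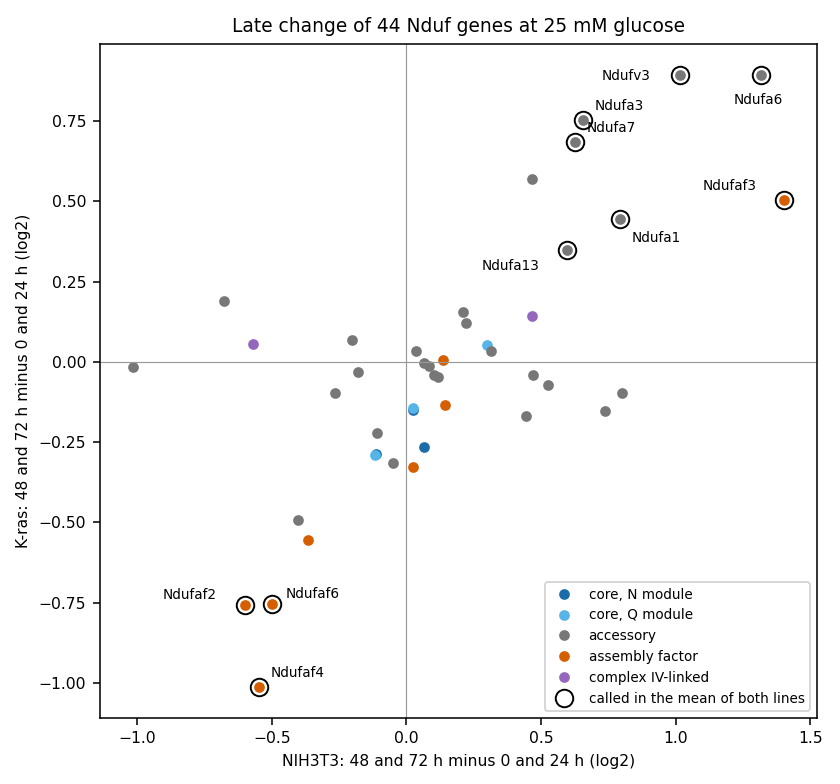
Late change at 25 mM (48 and 72 h minus 0 and 24 h, log2) of each of the 44 Nduf genes in K-ras (vertical) against NIH3T3 (horizontal), coloured by role; rings mark the 10 genes called in the mean of both lines. The 7 ringed genes that rose lie at the upper right, the assembly factors Ndufaf2, Ndufaf4 and Ndufaf6 at the lower left, and the core subunits near the centre.

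Single time steps were also compared. From 24 to 72 h in NIH3T3, 3 of 44 genes (6.82%) rose and 0 fell, where 6.15% of all genes were called (4.06% higher, 2.08% lower), so the share called was near that of all genes. These were Ndufv3 (1.34 ± 0.34, limma adjusted p = 0.0278), Ndufa1 (1.15 ± 0.29, adjusted p = 0.0291) and Ndufb5 (0.95 ± 0.27, adjusted p = 0.0466). Ndufb5, a subunit of the distal membrane arm, read -1.26 and -0.60 at 24 h and -0.09 and 0.13 at 72 h, and its other probe set gave 0.30. Ndufaf3 had the largest change, 1.74 ± 0.54, and missed the threshold (adjusted p = 0.064). The lowest were Ndufab1 (-0.93), Ndufaf6 (-0.78), Ndufa4l2 (-0.78) and Ndufaf5 (-0.77), not called. With any 1 of the 4 arrays left out, at most 1 of the 44 genes was called, and none of these 3 was. After quantile normalisation the count was 0, and without the 6 arrays that lay with the other line it was 6 (13.6%, against 10.5% of all genes).

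From 0 to 24 h in NIH3T3, 0 of 44 were called (background 0.0055%), with 2 at an unadjusted p under 0.05 (4.55%, as for all genes). From 0 to 72 h in NIH3T3, 0 of 44 were called (background 5.52%), with 10 at an unadjusted p under 0.05 (22.7%, against 20.3% of all genes). There Ndufa6 had the highest change (1.59) and Ndufaf4 the lowest (-1.56). Fitting the 2 groups compared on their own called 14 of the 44 (31.8%, against 27% of all genes), and leaving out the 6 arrays called 6 (13.6%, against 10.7%). In K-ras, 0 of 44 were called from 24 to 72 h (background 0%) and 0 from 0 to 72 h (background 0%). An unadjusted p under 0.05 was reached by 6 genes in the first step (13.6%, against 10.2% of all genes) and by 9 in the second (20.5%, against 15.3%). Without replicate 2 of K-ras at 72 h, 7 genes were called in the first (15.9%, against 12.8% of all genes) and 9 in the second (20.5%, against 14%). Those fits rest on the array with the wide spread for K-ras at 72 h. The step from 24 to 72 h differed between the lines for 0 of 44 genes (background 0.0055%), with 5 at an unadjusted p under 0.05 (11.4%, against 14.6% of all genes) and the most negative difference in Ndufb5 (-1.47).

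The fibroblast markers, taken as a sum, were higher at 72 than at 24 h in NIH3T3, though few were called singly. The sum of the log2 ratios of 12 such genes was -15.5 to -11.3 on the NIH3T3 arrays at 24 h and 9.13 to 11.7 at 72 h, with 2 of the 12 higher and 0 lower. In the late comparison of both lines, 4 of the 12 rose and 0 fell, and the sums ran from -15.5 to 2.10 early and from -6.80 to 16.6 late. Of the lists of markers of other cell types, 1 of 6 skeletal muscle genes fell late, and 0 of 6 leukocyte, 7 epithelial, 5 endothelial and 4 fat genes were called. Whether any marker was at background cannot be read from ratios. Their part in the change of the Nduf genes was not tested.

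The rest of the respiratory chain was described from lists of genes for the other complexes. In the late comparison 2 of 8 complex II genes rose, Sdhc by 0.55 ± 0.09 (limma adjusted p = 0.0014) and Sdhaf4 by 0.70 ± 0.20 (adjusted p = 0.0291). Of 12 complex III genes, 1 fell (Cyc1, cytochrome c1, -0.63 ± 0.16, adjusted p = 0.015). Of 17 complex IV genes, 2 rose, Cox6c by 0.61 and Cox7a2l by 0.58, and of 17 complex V genes, Atp5c1 rose by 0.76. The medians were 0.06, 0.05, 0.08 and 0.16 for complexes II to V.

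Of 11 further assembly factors of complex I, Lyrm2 rose by 1.07 ± 0.13 (limma adjusted p = 0.000372) and the other 10 were not called. The mitochondrially encoded ND5, the 1 such complex I gene measured, rose by 0.61 ± 0.19 (adjusted p = 0.041). Of 19 regulators of mitochondrial gene expression, 0 rose and 3 fell. These were Pprc1, a coactivator related to PGC-1alpha (-0.84 ± 0.17, adjusted p = 0.00529), Nrf1 (-0.78 ± 0.22, adjusted p = 0.0241) and Gabpb1, a subunit of an ETS factor (-0.70 ± 0.18, adjusted p = 0.0183).

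Between the lines, Nduf genes were rarely called. K-ras was compared with NIH3T3 at 25 mM over the mean of 0, 24, 48 and 72 h, and 1 of 44 genes (2.27%) passed the threshold, where 11.3% of all genes did (5.67% in each direction). An unadjusted p under 0.05 was reached by 11 of the 44 (25%) and by 24.7% of all genes. The median difference was -0.06 for the Nduf genes and -0.04 for all genes.

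The called gene was Ndufa13, which was lower in K-ras. It spanned -0.20 to 0.83 (median 0.24) on the 8 NIH3T3 arrays and -0.53 to 0.24 (median -0.13) on the 8 K-ras arrays, which overlap. The difference was -0.38 ± 0.12 (limma adjusted p = 0.0493). The probe sets shared with Yjefn3 gave -0.32 and 0.06. Leaving out 1 array ended this call in 13 of 16 fits.

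The highest differences, not called, were those of Ndufb11 (0.50 ± 0.17), Ndufc1 (0.44 ± 0.19), Ndufa1 (0.40 ± 0.15) and Ndufa6 (0.37 ± 0.24), which are all accessory subunits. Ndufb11 spanned -0.81 to 0.15 in NIH3T3 and -0.77 to 0.80 in K-ras, and its 3 probe sets gave 0.49 to 0.53. The lowest were those of Ndufaf3 (-0.59 ± 0.27), Ndufb7 (-0.58 ± 0.23), Ndufaf7 (-0.44 ± 0.21) and Ndufaf8 (-0.43 ± 0.17). Among core subunits Ndufs8 (-0.36 ± 0.14) and Ndufs3 (0.18 ± 0.14) were the extremes.

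Which Nduf genes passed in this comparison changed with the setting. After quantile normalisation Ndufc1 was called in place of Ndufa13, and after centring each array Ndufb11 was, both higher in K-ras. Without the 6 arrays that lay with the other line, 3 were called, Ndufa1 and Ndufb11 higher and Ndufa13 lower (6.82%, against 17.9% of all genes). Without replicate 2 of K-ras at 72 h, 7 were called (15.9%, against 15.5% of all genes). That fit rests on the array with the wide spread for K-ras at 72 h. With the bioC level as a block, 0 were called, as were 0 of all genes, and line and bioC level cannot be told apart at 25 mM. Some markers of other cell types differed between the lines too: 3 of 7 epithelial genes were lower in K-ras, with summed log2 ratios of -5.57 to 1.07 against 1.28 to 4.53 in NIH3T3, as were 2 of 6 skeletal muscle genes (-1.49 to 0.40 against -0.13 to 6.50). Of 12 fibroblast genes, 2 were higher (-9.06 to 16.6 against -15.5 to 11.7). Their part in the line difference was not tested.

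**Figure D4:**
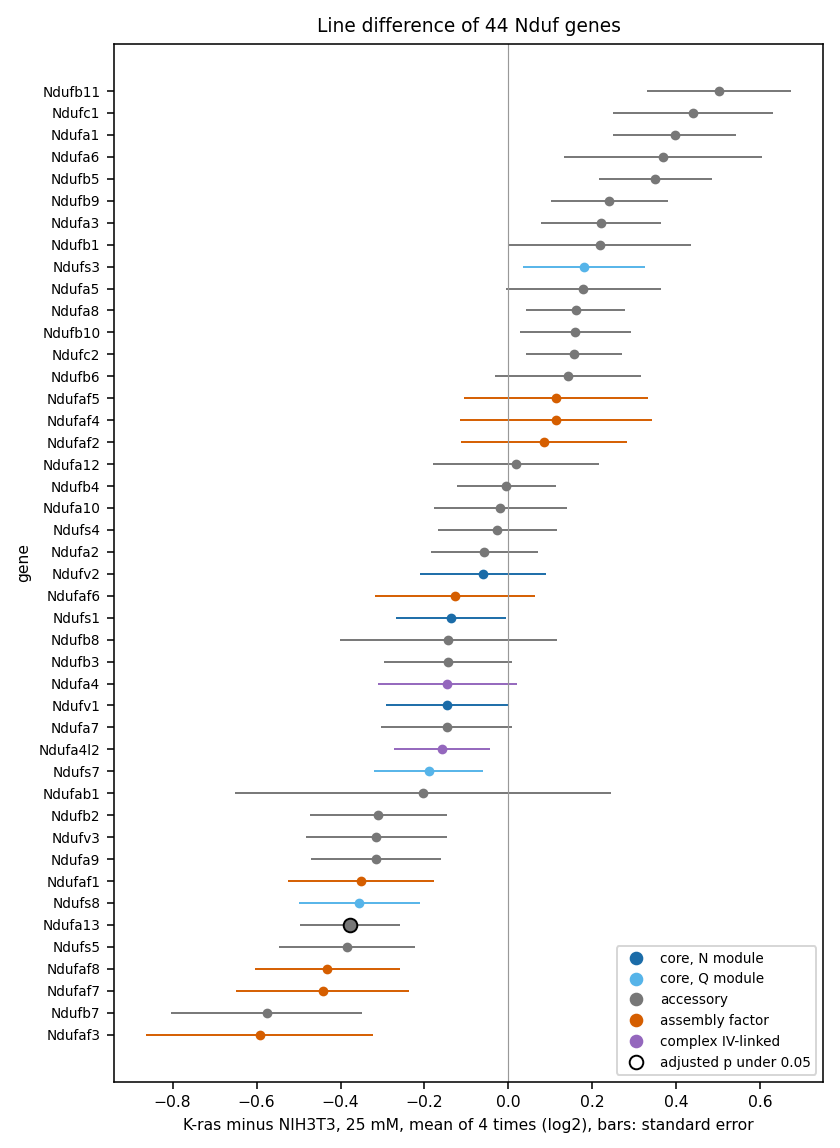
K-ras minus NIH3T3 at 25 mM, mean of 4 times (log2), for the 44 Nduf genes in order of the difference; points are estimates from 8 arrays a line, bars are limma standard errors, colours are roles, and the ringed point is Ndufa13. The differences lie on both sides of 0, from -0.59 (Ndufaf3) to 0.50 (Ndufb11).

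The lines were also compared at 24 and 72 h at 25 mM and at 72 h at 1 mM, and 0 of the 44 genes were called in each. At 24 h and 25 mM (background 0.066%) 6 had an unadjusted p under 0.05 (13.6%, against 15.3% of all genes), and Ndufb5 came closest to the threshold. It read -1.26 and -0.60 in NIH3T3 and 0.49 and 0.24 in K-ras, a difference of 1.29 ± 0.27 (limma adjusted p = 0.0642). Ndufb6, also in the distal membrane arm, differed by 1.10, Ndufa1 by 1.03 and Ndufc1 by 0.98, and Ndufab1 had the lowest difference, -1.14. Leaving out the 6 arrays, none of which is in these groups, gave 2 calls (4.55%, against 6.29% of all genes).

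At 72 h and 25 mM (background 0.726%) 2 of the 44 had an unadjusted p under 0.05 (4.55%, against 21.6% of all genes). The lowest differences were those of Ndufaf3 (-1.17) and Ndufaf7 (-0.86), and the highest those of Ndufb8 (0.65) and Ndufb11 (0.57). At 72 h and 1 mM (background 0.253%) 1 of the 44 had an unadjusted p under 0.05 (2.27%, against 12.6% of all genes), and the differences ran from -0.61 (Ndufaf3) to 1.08 (Ndufb6).

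Glucose gave no called Nduf gene in any comparison fitted on all arrays. In NIH3T3 at 72 h, 1 mM was compared with 25 mM, and 0 of 44 were called (background 0.011%), with 2 at an unadjusted p under 0.05 (4.55%, against 6.73% of all genes). Ndufb6 read 0.09 and 0.16 at 25 mM and -1.37 and -0.56 at 1 mM, a difference of -1.09 ± 0.35. Ndufa1 read 0.24 and 0.28 at 25 mM and -0.61 and -0.67 at 1 mM, a difference of -0.90 ± 0.29 (limma adjusted p = 0.534). The arrays of these 2 genes did not overlap between the glucose levels, with 1 mM lower, which held for 17.4% of all genes. The highest were Ndufaf5 and Ndufa4l2, both at 0.41.

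In K-ras at 24 h, 0 of 44 Nduf genes were called (background 0%), and none had an unadjusted p under 0.05, as 0.643% of all genes did. Ndufab1 differed most, by 1.09 ± 0.89, and its replicates read -1.48 and 0.52 at 25 mM and 1.26 and -0.03 at 1 mM. The probe sets of Ndufab1 disagree, as given above. The other 43 genes lay between -0.25 (Ndufaf3) and 0.36 (Ndufa12).

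In K-ras at 72 h, 0 of 44 were called (background 0.181%), with 2 at an unadjusted p under 0.05 (4.55%, against 15.3% of all genes). Ndufa3 read 0.45 and 0.79 at 25 mM and -0.14 and -0.52 at 1 mM, a difference of -0.95 ± 0.29 (limma adjusted p = 0.145). Without the 6 arrays, which include 1 of the 1 mM arrays at 72 h, 1 gene was called (2.27%, against 3.74% of all genes). Without replicate 2 of K-ras at 25 mM and 72 h, 6 were called (13.6%, against 13.8% of all genes). That last fit rests on the array with the wide spread for K-ras at 25 mM. The median over the 44 genes was 0.13 as fitted and -0.16 without the 6 arrays. The glucose difference at 72 h did not differ between the lines for any of the 44 by this threshold (background 0%), with 2 at an unadjusted p under 0.05 (4.55%, against 12.2% of all genes).

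Averaged over 24, 48 and 72 h in K-ras, a comparison added after the values had been seen, 0 of 44 were called (background 0.0055%), with 2 at an unadjusted p under 0.05 (4.55%, against 8.59% of all genes). The differences ran from -0.40 (Ndufa1) to 0.40 (Ndufaf6). Among the 1 mM arrays averaged here, the first replicates at 48 and 72 h lay with the other line. The genes that rose late at 25 mM can be read at 1 mM as well. Ndufv3 in NIH3T3 at 1 mM read -0.22 and -0.49 at 24 h, 0.02 and 0.32 at 48 h, and 0.31 and 0.79 at 72 h, but both 24 h arrays and one 48 h array lay with the other line. In K-ras at 1 mM it read -0.36 and -0.05 at 24 h, -0.49 and -0.02 at 48 h, and 0.82 and -0.37 at 72 h, where the high value is again from an array that lay with the other line.

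**Figure D5:**
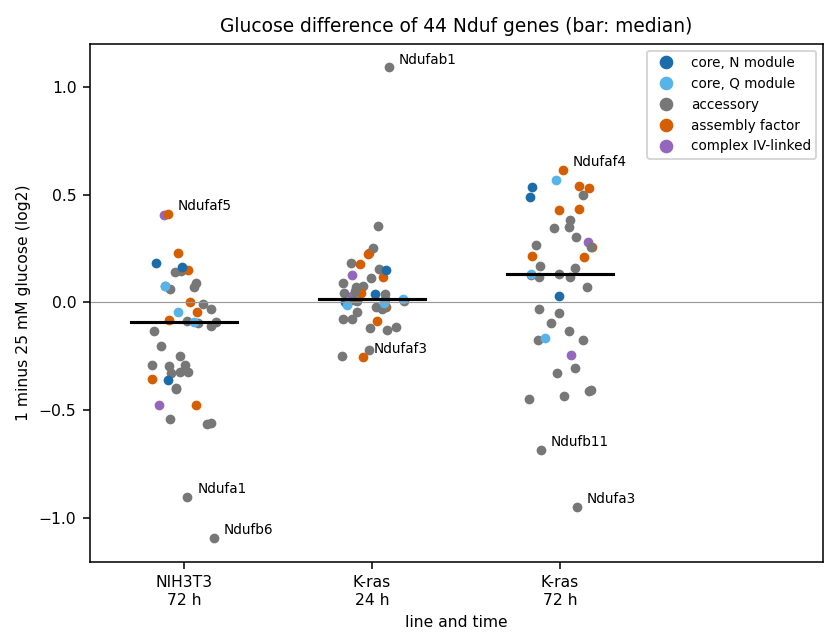
Difference between 1 and 25 mM glucose (log2) for the 44 Nduf genes in NIH3T3 at 72 h and in K-ras at 24 and 72 h; points are genes coloured by role, spread sideways at random, and bars are medians. In K-ras at 24 h all genes but Ndufab1 (1.09) lie close to 0, and the lowest points are Ndufb6 (-1.09) in NIH3T3 and Ndufa3 (-0.95) in K-ras at 72 h.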

How the data were processed

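Total RNA was measured on 28 Affymetrix arrays, with 1 culture on each. RMA is named per the submitters' processing notes, with no version. The deposited values are log2 ratios to a median. Tested on the file, the median ratio of each of 45101 probe sets over the 28 arrays was 1 within 0.001. Probe sets with 1 symbol in the platform's annotation were kept, without control probe sets, at 1 probe set per gene (largest SD), giving 18193 genes. No depth or detection call was used, and 2 arrays per group limit the precision.

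Groups came from the labels. limma 3.58.1 in R 4.3.3 (lmFit, eBayes) was fitted to all 28 arrays with 1 coefficient per group, and p-values were adjusted by Benjamini-Hochberg over all genes within a comparison. The fit was tested on simulated data. The Nduf genes, lists, cell type markers and tests were chosen with earlier results of these data known. The late comparisons, their difference between lines and the K-ras glucose mean were added after the values had been seen. Nduf genes named are those called, the 4 highest and 4 lowest in a comparison (fewer where not needed), and those fixed by name (core subunits, Ndufab1, Ndufa4, Ndufa4l2, assembly factors). From the other lists, called genes were named, at most 3 a list. Promoters came from RefSeq (GRCm38.p6), and were searched with Python 3.11.15. Figures were drawn with matplotlib 3.10.9. Alternatives were quantile normalisation, array centring, other samples in the fit, the mean of the probe sets, a filter on low SD, the replicate number or bioC level as a block, and fits without doubtful or single arrays.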

Additional observations from a re-analysis of the deposited data

How the results depend on the processing

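All values are numbers of called Nduf genes of 44 (of 24 where genes of low SD were left out) unless a median over their log2 differences is named, and the cause of each change was not tested. Quantile normalisation gave 0 for 24 to 72 h in NIH3T3, 4 for the late change in NIH3T3 and 1 in K-ras. Array centring gave 1 for the lines at 24 h and 2 for 0 to 72 h in NIH3T3. Fitting only the groups compared gave 2 for the line mean, 1 for the lines at 24 h, 8 for 24 to 72 h and 14 for 0 to 72 h in NIH3T3. The mean of the probe sets gave 3 for the line mean and 1 for 0 to 72 h in NIH3T3. Leaving out genes of low SD kept 24 of the 44, without the core subunits, and gave 0 for the line mean and 2 for 0 to 72 h in NIH3T3. The median over these 24 was 0.23 for 24 to 72 h in NIH3T3, a different set of genes from the 44. The line mean fell to 0 without 0 h. The replicate numbers were not taken to pair the arrays (91 pairs of groups, median correlation of deviations -0.04, 23 over 0.1), and with the replicate block the line mean gave 0 and the late change of both lines 10. With the bioC level as a block the line mean gave 0, and the medians were -0.28 for the line mean, -0.25 for the lines at 24 h and -0.41 at 72 h. The late change of both lines gave 2 when 72 and 24 h were compared alone.

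Without the 6 arrays that lay with the other line, the counts were 3 for the line mean, 2 for the lines at 24 h, 1 for the lines at 72 h and 1 mM, 6 for 24 to 72 h and 6 for 0 to 72 h in NIH3T3, and 1 for glucose in K-ras at 72 h. The medians were then -0.16 for glucose in K-ras at 72 h and -0.027 for its difference between the lines. Without replicate 1 of K-ras at 25 mM and 72 h as well, the counts were 6, 3, 1, 8, 7 and 2 in the same order, 1 for the lines at 72 h and 25 mM, and 11 for the late change in NIH3T3. The medians in that fit were -0.52 for glucose in K-ras at 72 h, -0.35 for its difference between the lines, -0.15 for the K-ras glucose mean, 0.081 for the lines at 72 h, 0.16 for 24 to 72 h and 0.30 for 0 to 72 h in K-ras, 0.15 for the difference between the lines from 24 to 72 h and 0.034 for the difference in late change.

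Leaving out 1 array at a time moved the counts over 0 to 7 (line mean), 0 to 1 (lines at 24 h), 0 to 5 (72 h) and 0 to 1 (72 h, 1 mM). In NIH3T3 they moved over 0 to 1 (24 to 72 h) and 0 to 9 (late change), and in K-ras over 0 to 7 (24 to 72 h), 0 to 9 (0 to 72 h), 0 to 8 (late change), 0 to 6 (glucose at 72 h) and 0 to 1 (glucose mean). The late change of both lines moved over 6 to 12, its difference between lines over 0 to 2, the step from 24 to 72 h between lines over 0 to 3 and the glucose difference over 0 to 2. Replicate 2 of K-ras at 25 mM and 72 h gave the highest count in most of these when left out. Its group is then represented only by replicate 1, the array with the wide spread. The medians moved over -0.52 to 0.081 (lines, 72 h), -0.16 to 0.29 (72 h, 1 mM), -0.14 to 0.28 (24 to 72 h, NIH3T3), -0.43 to 0.16 (24 to 72 h, K-ras), -0.30 to 0.25 (0 to 72 h, K-ras), -0.55 to 0.15 (24 to 72 h between lines), -0.41 to 0.016 (late difference), -0.36 to 0.066 (glucose, NIH3T3), -0.022 to 0.20 (glucose mean, K-ras), -0.16 to 0.41 (glucose, K-ras, 72 h) and -0.10 to 0.54 (glucose difference). None of the 22 results of called genes changed direction under these settings. Of the 34 genes not called late, 10 changed sign when 1 array was left out, among them Ndufv2 (-0.26 to 0.06), Ndufs8 (-0.18 to 0.07), Ndufaf1 (-0.07 to 0.21), Ndufaf7 (-0.19 to 0.20) and Ndufaf8 (-0.32 to 0.02). Several medians near 0 changed sign. Signal over background is unknown, and 2 arrays per group limit what can be called.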
